A study of Mus musculus with 9 samples.

Results

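The genes described here are 10 parts of the canonical Wnt/beta-catenin pathway, Ctnnb1, Axin2, Nkd1, Notum, Lef1, Tcf7, Apc, Rnf43, Znrf3 and Sp5, in subcutaneous mouse melanomas. They were named as known parts of the pathway, out of 22136 genes, with earlier results of these data already known. The estimated reads of all transcripts of each gene were added up in each of 9 libraries. Of the 10, 8 held enough reads to be tested among 12965 genes. Rnf43 and Sp5 did not, and their reads are given library by library.

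Tumors grew from YUMMER1.7 cells injected under the skin of immunocompetent C57BL/6J mice. These mouse melanoma cells were exposed to ultraviolet light when the line was derived, which raised their immunogenicity. There were 3 libraries each from tumors treated with anti-B7-H3, with anti-PD1 and with an IgG isotype control. B7-H3 and PD1 are immune checkpoint proteins, and dosing began once the allografts had reached a set size in every group. Antibody doses, animal ages and times of dissection are not in the labels, a further group that received both antibodies was not analysed here, and the series concerns melanomas driven by beta-catenin. Whether the libraries come from separate mice is not in the labels; p-values therefore measure no more than the spread between these samples, which may be technical. The RNA is that of whole tumors, host cells included, in which fewer cells of a type and less RNA per cell cannot be told apart.

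Beta-catenin, the product of Ctnnb1, is held low in resting cells by a destruction complex built on Axin and Apc. When a Wnt protein binds its receptors at the cell surface this complex is inactivated, and beta-catenin enters the nucleus and works with the DNA-binding factors of the TCF/LEF family, among them Lef1 and Tcf7. Several of the genes it switches on act back on the pathway, which makes them common readouts of its activity: Axin2, Nkd1, Notum, Rnf43 and Znrf3 restrain it at different steps, and Sp5 encodes a transcription factor. In melanoma, active beta-catenin signaling in tumor cells has been linked to tumors with few T cells.

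The start regions of 3 of these genes are shown because TCF/LEF factors bind short words that start with CTTTG and go on with any pair of the letters A and T. These 4 words and their complements on the other strand were searched in RefSeq windows of build GRCm38.p6, each 300 bases long, 250 before and 50 after an annotated start. Each is written 5′ to 3′ on the strand of the gene, with matched words in capitals. The Sp5 window is chr2:70474673-70474972 (+), the Lef1 window, at an internal start, is chr3:131156044-131156343 (+), and the Axin2 window is chr11:108920099-108920398 (+).
Sp5: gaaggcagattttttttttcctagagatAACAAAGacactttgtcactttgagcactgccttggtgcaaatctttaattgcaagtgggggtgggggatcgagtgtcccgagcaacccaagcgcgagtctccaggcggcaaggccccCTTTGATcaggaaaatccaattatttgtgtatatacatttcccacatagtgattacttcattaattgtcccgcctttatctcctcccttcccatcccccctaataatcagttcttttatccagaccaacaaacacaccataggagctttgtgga
Lef1: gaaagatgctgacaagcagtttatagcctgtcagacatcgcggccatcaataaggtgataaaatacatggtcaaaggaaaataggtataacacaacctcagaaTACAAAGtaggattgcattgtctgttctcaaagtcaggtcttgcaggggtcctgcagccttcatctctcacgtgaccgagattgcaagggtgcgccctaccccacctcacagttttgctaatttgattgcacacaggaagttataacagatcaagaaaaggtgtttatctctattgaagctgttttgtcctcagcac
Axin2: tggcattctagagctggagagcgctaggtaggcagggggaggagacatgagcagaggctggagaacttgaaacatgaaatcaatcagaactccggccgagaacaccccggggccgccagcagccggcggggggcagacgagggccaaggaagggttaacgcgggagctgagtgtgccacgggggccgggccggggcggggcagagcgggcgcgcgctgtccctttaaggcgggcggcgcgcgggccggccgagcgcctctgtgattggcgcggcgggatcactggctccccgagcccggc
The Sp5 window held 2 matches, AACAAAG and CTTTGAT, and the Lef1 window shown held 1, TACAAAG. The other Lef1 windows held none. No word is in the Axin2 window. Of the 13 windows of the 7 genes that matched the table, 2 held a word, against 16.9% of all 32851 windows. A match is a description of the letters and says nothing of binding.

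The 9 libraries differed in makeup before any gene is considered. Major satellite repeats, the tandem DNA beside mouse centromeres, took 5.24 to 28.2% of gene reads with anti-B7-H3 and 14.6 to 38.2% with anti-PD1, against 87.0 to 92.1% with IgG. Reads outside them came to 7232142 to 14404373 with anti-B7-H3 and 5320053 to 9578170 with anti-PD1, against 1218961 to 3533127 with IgG. Olfactory and vomeronasal receptor genes, 1514 genes with no known role in a skin tumor, made up 40.4 to 199 CPM of the reads outside satellites with anti-B7-H3 and 78.7 to 282 CPM with anti-PD1, against 768 to 4987 CPM with IgG. None of these ranges overlaps between IgG and an antibody group, so satellite and receptor reads move with every comparison against IgG. Levels below are CPM after TMM scaling, which sets the typical gene equal between libraries. Most of 12 pigment cell markers had few reads over all 9 libraries. Tyr, Dct and Oca2 had 14 reads each, Slc45a2 had 11, Mc1r 9, Tyrp1 6, Mlana 4 and Pmel 38. Sox10 had 56, Trpm1 61, Slc24a5 134 and Mitf 904. Slc24a5 stood at 5.59 to 13.3 CPM with IgG and at most 0.364 CPM with an antibody.

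None of the 8 tested genes passed an adjusted p of 0.05 in any of the 3 comparisons in edgeR's quasi-likelihood test. Against IgG, 7 of the 8 had a negative log2 fold change under each antibody, where 46.7% of all tested genes were negative and 53.3% positive with anti-B7-H3, and 49.5% negative and 50.5% positive with anti-PD1. The exception was Ctnnb1. With anti-B7-H3 the changes of Notum, Tcf7 and Apc were smaller than their SE, at -0.10 ± 0.47, -0.13 ± 0.29 and -0.08 ± 0.21. Their signs turned under some of the other settings given below. With anti-PD1 the change of Apc, at -0.19 ± 0.21, was also smaller than its SE. The median log2 fold change of the 8 was -0.19 for anti-B7-H3 against IgG and -0.63 for anti-PD1 against IgG, beside 0.03 and 0.01 over all tested genes. Both comparisons use the same IgG libraries. The gene furthest from IgG under both antibodies was Axin2 by p, while the libraries of Nkd1 and Notum lay below all IgG libraries with anti-PD1 and overlapped with them with anti-B7-H3.

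**Figure D1:**
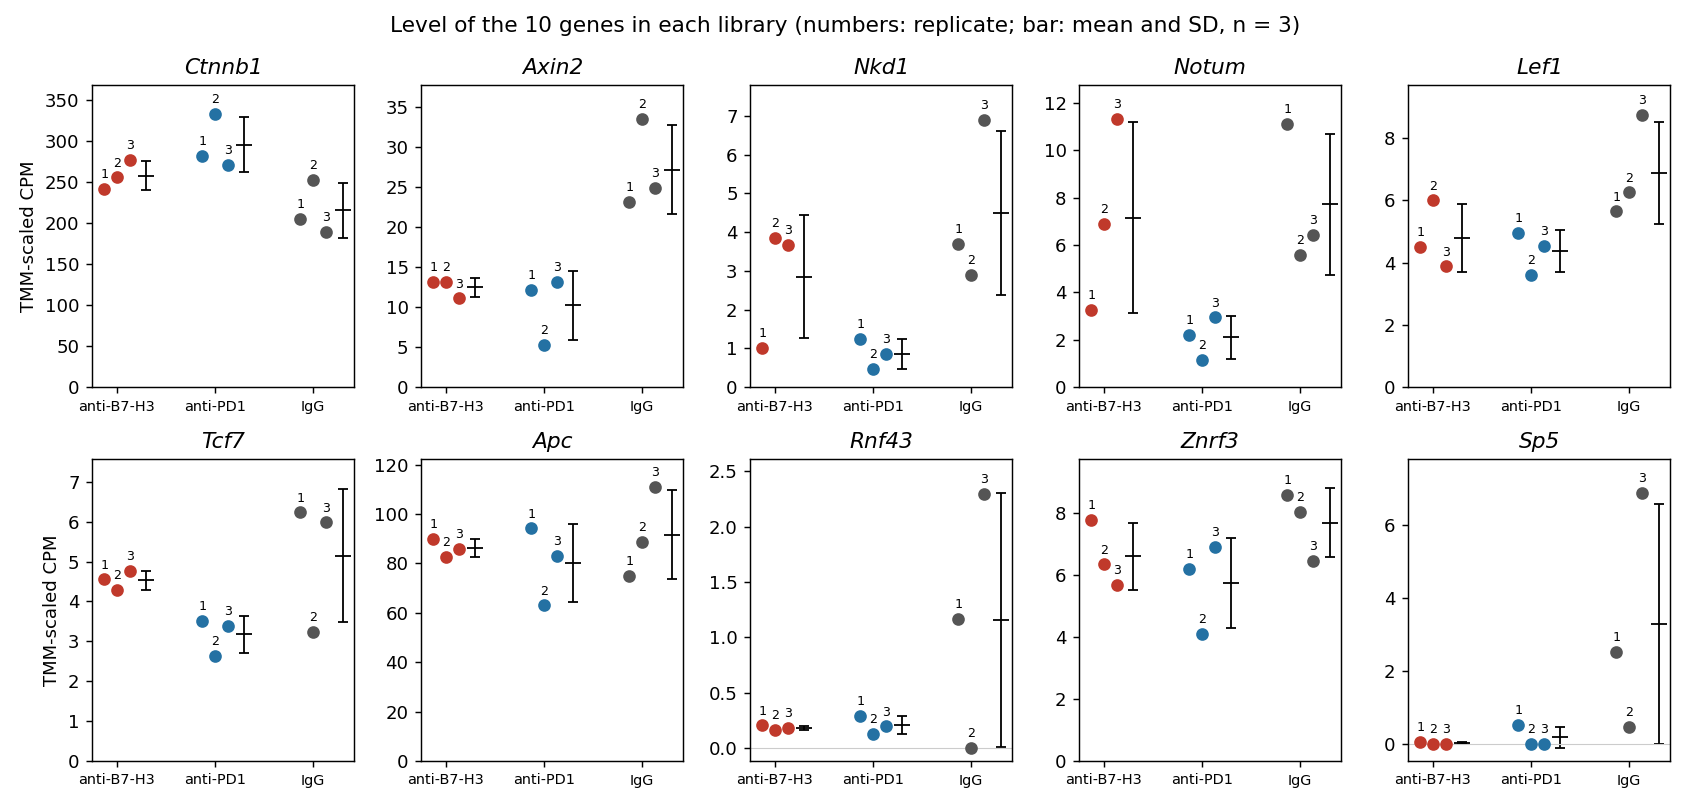
TMM-scaled CPM (vertical axis) of each of the 10 genes in anti-B7-H3, anti-PD1 and IgG libraries, with the replicate number above each point and the mean and SD of the 3 libraries beside the points. Axin2 is lower in all 6 antibody libraries, at 5.26 to 13.2 CPM, than in the 3 IgG libraries, at 23.2 to 33.6 CPM, and Notum and Nkd1 are lowest with anti-PD1.

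For anti-B7-H3 against IgG, 0 of 8 genes passed the adjusted threshold in edgeR and 0 in limma-voom, beside 0.555% and 0.586% of all tested genes. DESeq2 called 1 of them, Axin2, lower, where it called 15.6% of all genes, so that 1 of 8 is near its background. At an unadjusted p under 0.05, edgeR had 1 lower, Axin2, and 0 higher, where 6.93% and 3.58% of all tested genes were lower and higher. The libraries of the 2 groups did not overlap for 1 gene, again Axin2, beside 8.53% of all tested genes that lay lower and 7.72% that lay higher without overlap.

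For anti-PD1 against IgG, 0 of 8 passed in edgeR and 0 in limma-voom, beside 0.393% and 0.617% of all tested genes. DESeq2 called 4, with Axin2, Nkd1 and Notum lower and Ctnnb1 higher, where it called 13.5% of all genes. At an unadjusted p under 0.05, edgeR had 5 lower (Axin2, Nkd1, Notum, Lef1 and Tcf7) and 1 higher (Ctnnb1), where the shares of all tested genes were 10.8% and 7.67%. The groups did not overlap for Axin2, Nkd1, Notum and Lef1, which lay lower, and for Ctnnb1, which lay higher. Over all tested genes, 11.9% were lower and 11.1% higher without overlap.

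For anti-B7-H3 against anti-PD1, 0 of 8 passed in edgeR, limma-voom or DESeq2, where edgeR and limma-voom each called 0% of all tested genes and DESeq2 0.115%. At an unadjusted p under 0.05, Nkd1 and Notum were higher with anti-B7-H3 and 0 were lower, where 3.92% and 2.56% of all tested genes were higher and lower. Notum and Tcf7 were higher with anti-B7-H3 without overlap, beside 7.55% of all tested genes, and 0 were lower, beside 7.89%. The sign was positive for 7 of the 8, all but Ctnnb1, where 51.1% of all tested genes were positive and 48.9% negative. The test of any difference over the 3 groups called 0 of the 8, beside 1.14% of all tested genes. DESeq2 called 3 there, beside 15.8% of all genes, and limma-voom 0, beside 0.578%. At an unadjusted p under 0.05 edgeR had 3, beside 14.0%. Its smallest adjusted p among the 8 was 0.075, for Axin2, followed by 0.158 for Nkd1 and for Notum.

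**Figure D2:**
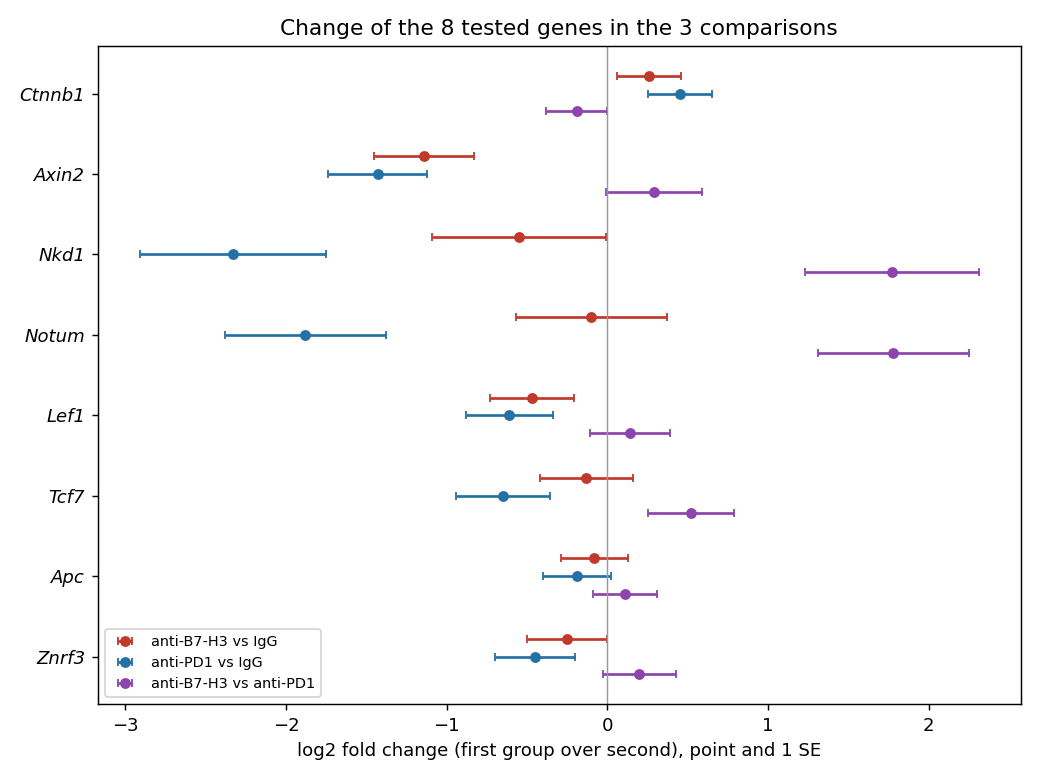
Log2 fold changes (horizontal axis) of the 8 tested genes with 1 SE for anti-B7-H3 against IgG, anti-PD1 against IgG and anti-B7-H3 against anti-PD1. Axin2 lies at -1.14 and -1.43 against IgG under the antibodies, while Nkd1 and Notum lie at -2.33 and -1.88 for anti-PD1 against IgG and at 1.77 and 1.78 where anti-B7-H3 is set against anti-PD1.

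Ctnnb1 (ENSMUSG00000006932, chromosome 9, 120929216 to 120960507, GRCm38) encodes beta-catenin itself, which also ties cadherins to the cytoskeleton. It had 242, 256 and 277 CPM with anti-B7-H3, 282, 334 and 271 CPM with anti-PD1, and 205, 253 and 189 CPM with IgG. All anti-PD1 libraries were above all IgG libraries, and the anti-B7-H3 libraries overlapped with IgG replicate 2. The log2 fold change was 0.26 ± 0.20 (SE, edgeR adjusted p = 0.692) for anti-B7-H3 against IgG and 0.45 ± 0.20 (adjusted p = 0.246) for anti-PD1 against IgG. With the receptor reads taken as a background and subtracted from every gene, the values were 0.06 ± 0.18 and 0.25 ± 0.18. Fitted beside the receptor signal, Ctnnb1 stood at -0.26 ± 0.40 and 0.04 ± 0.34. Ctnnb1 was by far the most abundant of the 10 genes: per kilobase of the longest listed coding sequence its level was 110 ± 7.34 with anti-B7-H3, 126 ± 14.2 with anti-PD1 and 91.9 ± 14.4 with IgG (CPM per kilobase, SD, n = 3).

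Apc, on chromosome 18, encodes the large scaffold that presents beta-catenin for degradation. It had 90.1, 82.6 and 86.0 CPM with anti-B7-H3, 94.2, 63.0 and 83.2 CPM with anti-PD1, and 75.1, 88.8 and 111 CPM with IgG. All 3 groups overlapped, and the log2 fold changes were -0.08 ± 0.21 for anti-B7-H3 against IgG (edgeR adjusted p = 0.935), -0.19 ± 0.21 for anti-PD1 against IgG (0.659) and, between the antibodies, 0.11 ± 0.20 for anti-B7-H3 over anti-PD1 (0.928). The 95% interval of the first runs from -0.48 to 0.32 and that of the second from -0.59 to 0.21.

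Axin2 (ENSMUSG00000000142, chromosome 11, 108920349 to 108950783) encodes a scaffold of the destruction complex that the pathway itself switches on, and it is the target used most widely as a readout. It had 13.2, 13.2 and 11.1 CPM with anti-B7-H3, 12.2, 5.26 and 13.2 CPM with anti-PD1, and 23.2, 33.6 and 24.9 CPM with IgG. The lowest IgG library stood above every antibody library, and the antibody groups overlapped each other. Its mean was 12.5 ± 1.22 CPM with anti-B7-H3, 10.2 ± 4.32 CPM with anti-PD1 and 27.2 ± 5.62 CPM with IgG (SD, n = 3). The log2 fold change was -1.14 ± 0.31 for anti-B7-H3 against IgG (edgeR adjusted p = 0.14) and -1.43 ± 0.31 for anti-PD1 against IgG (adjusted p = 0.067). Between the antibodies it was 0.29 ± 0.30, with a 95% interval from -0.29 to 0.88.

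The call on Axin2 turned on the tool and the genes tested. DESeq2 gave an adjusted p of 0.015 for anti-B7-H3 against IgG and 0.0029 for anti-PD1 against IgG. In edgeR it passed for anti-PD1 against IgG with satellite genes removed (adjusted p = 0.047) and with no filter on low counts (0.033). Leaving out 1 library at a time, its change ran from -1.24 to -0.93 for anti-B7-H3 against IgG (adjusted p 0.05 to 0.415) and from -1.66 to -1.10 for anti-PD1 against IgG (0.07 to 0.17).

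The receptor reads were also set against those of Axin2. At the rate per kilobase of the receptor genes, 4, 5.01 and 21.2 reads would be expected at Axin2 in the anti-B7-H3, anti-PD1 and IgG libraries together, and 1164, 626 and 474 were found. In IgG libraries the reads of Axin2 were thus 22.4 times that rate. Subtracted from every gene, this background left Axin2 at -1.24 ± 0.31 for anti-B7-H3 against IgG (edgeR adjusted p = 0.151) and at -1.53 ± 0.31 for anti-PD1 against IgG (adjusted p = 0.09), or -1.47 ± 0.29 (adjusted p = 0.029) with no filter on low counts. Fitted beside the receptor signal the values were -1.0 ± 0.67 and -1.32 ± 0.55. On the deposited TPM values, in which satellite reads take their part of the total, the order was the opposite, with Axin2 at 16.3 ± 3.18 TPM with anti-B7-H3, 14.0 ± 6.49 TPM with anti-PD1 and 2.75 ± 2.09 TPM with IgG. Scaled by library totals the log2 fold changes of Axin2 were 2.15 and 1.65, while the median of all tested genes was 3.37 and 3.15. Axin2 thus lay below the typical gene. A change of scaling moves nearly all genes alike, so this repeats the TMM result and is no separate evidence.

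**Figure D3:**
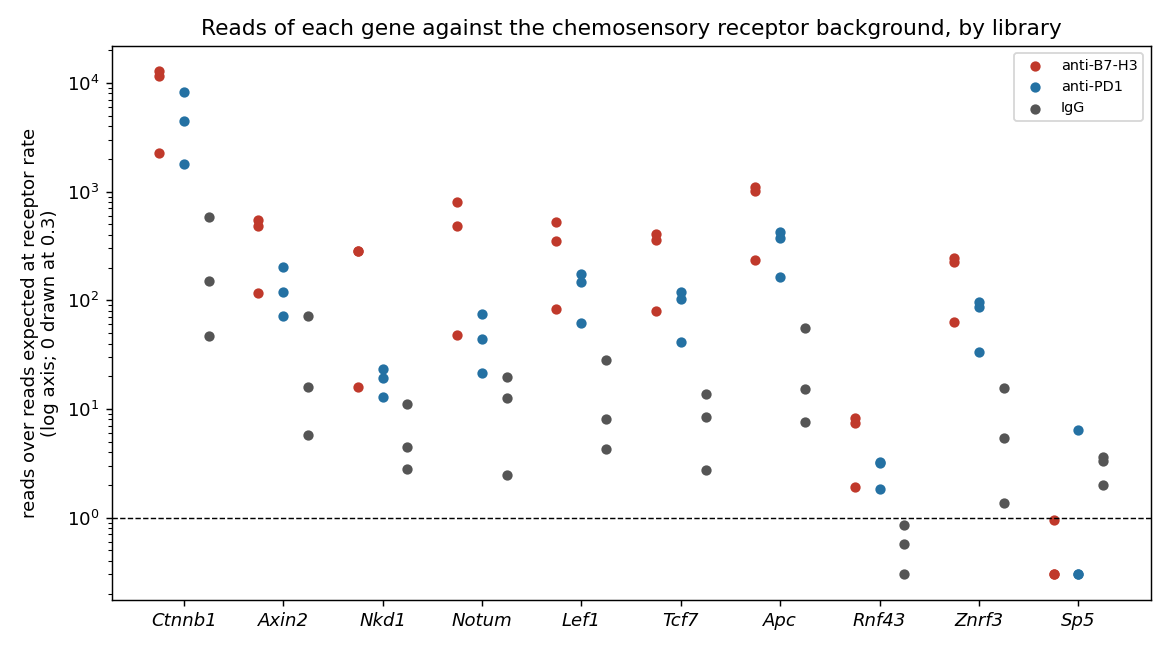
Reads of each gene divided by the reads expected from its coding length at the rate of the receptor genes (vertical log axis; dashed line at 1), 1 point per library of the anti-B7-H3, anti-PD1 and IgG groups. Ctnnb1, Axin2 and Apc lie above the line in every library, Rnf43 lies below it in the 3 IgG libraries, and libraries without reads of Rnf43 or Sp5 are drawn at the foot.

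Nkd1 (ENSMUSG00000031661, chromosome 8, 88521354 to 88594884) encodes naked cuticle 1, which binds Dishevelled and dampens the signal. It had 1.02, 3.84 and 3.68 CPM with anti-B7-H3, 1.24, 0.474 and 0.863 CPM with anti-PD1, and 3.70, 2.90 and 6.90 CPM with IgG, from 11 to 143 reads a library. All anti-PD1 libraries lay below all IgG libraries, while anti-B7-H3 replicate 1 stood with the anti-PD1 libraries and the others of its group with IgG. The log2 fold change was -2.33 ± 0.58 for anti-PD1 against IgG (edgeR adjusted p = 0.091), -0.55 ± 0.54 for anti-B7-H3 against IgG (adjusted p = 0.775) and, between the antibodies, 1.77 ± 0.54 for anti-B7-H3 over anti-PD1 (adjusted p = 0.749). Without anti-B7-H3 replicate 1 the call for anti-PD1 against IgG passed, at an adjusted p of 0.046, and it also passed with no filter on low counts (0.039) and in DESeq2 (0.0082).

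Notum (ENSMUSG00000042988, chromosome 11, 120653788 to 120661175) encodes a secreted enzyme that removes the lipid Wnt proteins need to bind their receptors. It had 3.27, 6.89 and 11.3 CPM with anti-B7-H3, 2.19, 1.16 and 2.94 CPM with anti-PD1, and 11.1, 5.59 and 6.44 CPM with IgG. Every anti-PD1 library was below every library of both other groups, and the anti-B7-H3 and IgG libraries overlapped fully. The log2 fold change was -1.88 ± 0.50 for anti-PD1 against IgG (edgeR adjusted p = 0.107) and, for the antibodies, 1.78 ± 0.47 for anti-B7-H3 over anti-PD1 (adjusted p = 0.749). For anti-B7-H3 against IgG it was -0.10 ± 0.47, with a 95% interval from -1.03 to 0.82.

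Anti-PD1 replicate 2 stood apart: of the 9 libraries it was the lowest in all 7 tested genes other than Ctnnb1, and the highest in Ctnnb1. This was not particular to these genes. In the same library, 15 nuclear partners of beta-catenin summed to 274 CPM, against 389 to 570 CPM in the others. The sum of Wnt ligands was highest there, at 161 CPM. Without anti-PD1 replicate 2, the change for anti-PD1 against IgG was -1.10 ± 0.22 for Axin2, -2.01 ± 0.63 for Nkd1 and -1.56 ± 0.53 for Notum (edgeR adjusted p = 0.164, 0.259 and 0.285). In the comparison of the antibodies, which sets neither against IgG though IgG libraries share the fit, the satellite and receptor ranges of the groups overlap. All 12 satellite genes were negative for anti-B7-H3 against anti-PD1, with a median log2 fold change of -1.04 and 0 past the threshold. After subtraction of the receptor background the values for anti-B7-H3 against anti-PD1 were 1.83 ± 0.57 for Nkd1 and 1.79 ± 0.50 for Notum. In IgG libraries their reads stood 5.05 and 9.53 times above the receptor rate, with 60 and 121 reads in all, so these levels rest on few reads.

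Lef1 (ENSMUSG00000027985, chromosome 3, 131110471 to 131224356), a DNA-binding partner of beta-catenin and also a target of the pathway, had 4.50, 6.00 and 3.88 CPM with anti-B7-H3, 4.95, 3.62 and 4.55 CPM with anti-PD1, and 5.65, 6.26 and 8.74 CPM with IgG. Anti-PD1 libraries lay below IgG libraries, and anti-B7-H3 replicate 2 lay among them. The log2 fold change was -0.47 ± 0.26 for anti-B7-H3 against IgG (edgeR adjusted p = 0.573) and -0.61 ± 0.27 for anti-PD1 against IgG (adjusted p = 0.252). The reads were split differently over its transcripts: the longest, of 1194 bases, held 54.5% of them with anti-B7-H3, 57.5% with anti-PD1, against 10.2% with IgG. In 1 anti-B7-H3 library and 2 IgG libraries it had no read, the IgG share rests on 10.6 of 104 reads, and the split between overlapping transcripts is an estimate, so no test was made.

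Tcf7 (ENSMUSG00000000782, chromosome 11, 52252371 to 52283014), the family member typical of T cells, had 4.55, 4.28 and 4.76 CPM with anti-B7-H3, 3.50, 2.63 and 3.38 CPM with anti-PD1, and 6.23, 3.24 and 5.98 CPM with IgG. The anti-B7-H3 libraries were all above the anti-PD1 libraries, and IgG overlapped with both. The log2 fold change was 0.52 ± 0.27 for anti-B7-H3 against anti-PD1 (edgeR adjusted p = 0.757), -0.65 ± 0.29 for anti-PD1 against IgG (adjusted p = 0.264) and -0.13 ± 0.29 for anti-B7-H3 against IgG (adjusted p = 0.996). The summed level of 18 T cell markers was 25.6, 36.2 and 42.8 CPM with anti-B7-H3 and 16.0, 27.8 and 31.0 CPM with anti-PD1. With IgG it was 38.3, 14.0 and 29.9 CPM. Every marker had reads over all libraries together, but Cd28 had 0 CPM in several of them. The marker reads were 2.34 times the receptor rate with IgG, against 111 times with anti-B7-H3 and 42.4 times with anti-PD1. IgG replicate 2 was the lowest of its group in Tcf7, in the marker sum and in receptor signal, at 768 CPM. The part of T cells in the values of Tcf7 and Lef1 was not tested.

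Znrf3 (ENSMUSG00000041961, chromosome 11, 5276324 to 5444847) and Rnf43 (ENSMUSG00000034177, chromosome 11, 87662722 to 87735539) encode related membrane ubiquitin ligases that remove Wnt receptors from the cell surface. Znrf3 had 7.78, 6.34 and 5.68 CPM with anti-B7-H3, 6.19, 4.10 and 6.91 CPM with anti-PD1, and 8.57, 8.04 and 6.44 CPM with IgG. These overlapped between all groups, and its log2 fold change was -0.25 ± 0.25 for anti-B7-H3 against IgG and -0.45 ± 0.25 for anti-PD1 against IgG (edgeR adjusted p = 0.779 and 0.365). With IgG the reads of Znrf3 were 5.65 times the receptor rate, and 1.37 times in replicate 3. With the receptor background subtracted its values were -0.04 ± 0.35 and -0.25 ± 0.35. Rnf43 was scarcely detected, with 4, 6 and 7 reads with anti-B7-H3, 4, 3 and 5 reads with anti-PD1, and 6, 0 and 5 reads with IgG. In IgG libraries this was 0.556 times what the receptor rate predicts, so expression of Rnf43 was not detectable there above background.

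Sp5 (ENSMUSG00000075304, chromosome 2, 70474923 to 70477729), whose start region is printed above, had 1, 0 and 0 reads with anti-B7-H3, 7, 0 and 0 reads with anti-PD1, and 13, 4 and 15 reads with IgG. Every IgG library held reads, and 4 of the 6 antibody libraries, although deeper outside satellites, held none. Scaled by TMM, the pooled level was 186-fold lower with anti-B7-H3 than with IgG (exact 95% interval 31.0 to 7565) and 17.5-fold lower with anti-PD1 than with IgG (7.61 to 47.1). These intervals cover counting error only, not the spread between libraries. The reads of Sp5 were 3.18 times the receptor rate in IgG libraries, 2.95 times with anti-PD1 and 0.527 times with anti-B7-H3. Where a setting kept it, edgeR with no filter on low counts gave adjusted p = 0.029 for anti-B7-H3 against IgG, DESeq2 gave 0.0011, and edgeR with no filter after background subtraction gave 0.079. The 7 fits that left out 1 library and kept Sp5 gave adjusted p from 0.029, without IgG replicate 2, to 0.334, and the other 6 did not pass. For anti-PD1 against IgG no setting passed, with adjusted p from 0.056 to 0.34.

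On the scale of CPM per kilobase of the longest coding sequence, the 10 genes kept a wide order within every group. Below Ctnnb1 came Apc, at 10.1 ± 0.442 with anti-B7-H3, 9.39 ± 1.86 with anti-PD1 and 10.7 ± 2.12 with IgG. Axin2 followed at 4.95 ± 0.485 with anti-B7-H3, 4.05 ± 1.71 with anti-PD1, and reached the level of Apc with IgG, at 10.8 ± 2.23. Lef1, Notum, Tcf7, Znrf3 and Nkd1 lay between 2.01 and 4.72 with anti-B7-H3, between 0.606 and 3.67 with anti-PD1 and between 2.80 and 5.76 with IgG. Neighbours in that order differed by less than the larger SD with IgG, and with anti-B7-H3 apart from Tcf7 and Znrf3, while with anti-PD1 this held for Tcf7 and Znrf3 alone. Rnf43 and Sp5 were last in each group, apart from Sp5 with IgG, whose mean of 2.75 ± 2.75 stood near that of Znrf3. This scale was taken after the values were seen, because effective lengths give short transcripts great weight: on them, 13.6 reads on a 207-base transcript put Axin2 at 19.5 in anti-PD1 replicate 1, beside 4.97 and 10.5 in replicates 2 and 3, and IgG libraries ran from 10.7 to 32.1.

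The rest of the pathway was read from 7 lists that hold 81 tested genes. Of these, 1 gene passed the adjusted threshold for anti-B7-H3 against IgG, beside 0.555% of all tested genes, and 0 passed for anti-PD1 against IgG, beside 0.393%. It was Amer1, which tethers Apc at the membrane and takes part in the destruction complex. Amer1 had 19.4, 13.2 and 11.2 CPM with anti-B7-H3, 20.4, 14.2 and 18.9 CPM with anti-PD1, and 81.0, 35.5 and 128 CPM with IgG. All IgG libraries were above all antibody libraries, and the log2 fold change was -2.46 ± 0.41 for anti-B7-H3 against IgG (edgeR adjusted p = 0.046) and -2.17 ± 0.41 for anti-PD1 against IgG (adjusted p = 0.059). Its level with IgG followed the receptor signal, highest in replicate 3 and lowest in replicate 2, and its reads there were 35.4 times the receptor rate. With the receptor background subtracted it stood at -2.71 ± 0.46 for anti-B7-H3 against IgG (adjusted p = 0.071), and fitted beside the receptor signal at -0.17 ± 0.54. For anti-PD1 against IgG it stood at -0.29 ± 0.45 beside the receptor signal, and 7 of 21 alternatives, library totals aside, called it lower. The anti-B7-H3 call was also lost without any 1 of 6 libraries, namely replicates 2 and 3 of both antibody groups (adjusted p 0.062 to 0.183) and replicates 1 and 3 of IgG (0.119 each).

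By role, the ligand list, which includes genes for making and exporting Wnt proteins, had 8 of 21 genes tested and a median log2 fold change of -0.09 for anti-B7-H3 against IgG and -0.75 for anti-PD1 against IgG. Its most abundant gene, Wls, which carries Wnt proteins to the surface, had 87.5 ± 8.65 CPM with anti-B7-H3, 114 ± 21.5 CPM with anti-PD1 and 64.2 ± 12.1 CPM with IgG (anti-PD1 against IgG 0.82 ± 0.21, edgeR adjusted p = 0.093; 3 of 21 alternatives, library totals aside, called it higher). Wnt5a, a ligand best known for signaling without beta-catenin, had 25.7 ± 4.64, 23.0 ± 7.31 and 26.9 ± 3.79 CPM in the anti-B7-H3, anti-PD1 and IgG groups. Of 15 tested receptors and R-spondins, 12 were negative against IgG under each antibody, beside 46.7% and 49.5% of all tested genes. Their medians were -0.29 and -0.61. None passed the threshold, beside 0.555% and 0.393% of all tested genes. The co-receptor Lrp6 was at 0.07 ± 0.25 and 0.24 ± 0.25 against IgG, and the receptor Fzd7 at -0.09 ± 0.27 and -0.41 ± 0.27.

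The 15 relay and destruction complex genes had medians of 0.02 for anti-B7-H3 against IgG and -0.13 for anti-PD1 against IgG, close to those of all tested genes. Tnks2, a tankyrase that marks Axin for degradation, was at 0.29 ± 0.20 and 0.40 ± 0.20, and the kinase gene Csnk1a1 at 0.24 ± 0.19 and 0.39 ± 0.19. Nuclear partners were negative in 9 and 11 of 14 under the antibodies, beside 46.7% and 49.5% of all tested genes, with medians of -0.18 and -0.22. Among them the co-activator genes Bcl9l and Crebbp were at -0.34 ± 0.47 and -0.16 ± 0.29 for anti-B7-H3 against IgG. The other inhibitors were negative in 7 of 10 in both comparisons with IgG, beside the same 46.7% and 49.5%. Apcdd1 was at -0.61 ± 0.25 and Dkk2 at 0.23 ± 0.30 for anti-PD1 against IgG. Of these 3 lists, Amer1 alone passed the threshold.

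Other targets of beta-catenin outside the feedback genes were split evenly. Of 12, 6 were negative for anti-B7-H3 against IgG and 7 for anti-PD1 against IgG, with medians of -0.01 and -0.14. The shares of all tested genes were 46.7% and 49.5%. Ccnd1, which encodes cyclin D1, had 231 ± 34.0 CPM with anti-B7-H3, 204 ± 19.1 CPM with anti-PD1 and 186 ± 26.0 CPM with IgG, at 0.31 ± 0.20 for anti-B7-H3 against IgG (edgeR adjusted p = 0.631) and 0.13 ± 0.20 for anti-PD1 against IgG (adjusted p = 0.759). The adhesion receptor gene Cd44 was at 0.19 ± 0.19 and 0.01 ± 0.19. Cadherin partners had 0 of 7 past the threshold against IgG, beside 0.555% and 0.393% of all tested genes. Ctnna1, the alpha-catenin gene, was at 0.10 ± 0.18 and 0.13 ± 0.18, and the endothelial cadherin gene Cdh5 at -0.34 ± 0.26 and -0.14 ± 0.27.

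**Figure D4:**
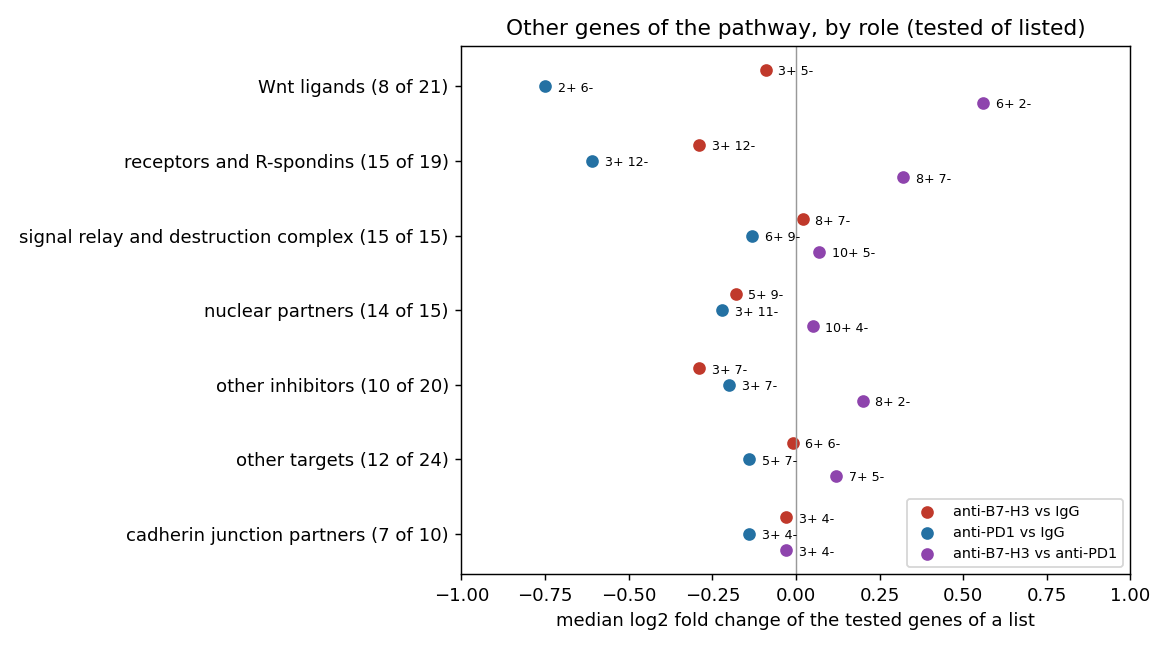
Median log2 fold change (horizontal axis) of the tested genes of 7 pathway lists for anti-B7-H3 against IgG, anti-PD1 against IgG and anti-B7-H3 against anti-PD1, with the number of positive and negative genes beside each point. The lowest median is -0.75, for the Wnt ligand list in anti-PD1 against IgG, and the medians of other targets are -0.01 and -0.14 against IgG.

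Markers of several cell types moved with the comparisons against IgG. The summed level of 18 keratinocyte and hair follicle markers was 1.52 to 3.74 CPM with anti-B7-H3 and 2.03 to 5.39 CPM with anti-PD1, against 19.9 to 53.8 CPM with IgG, where the reads were 1.31 times the receptor rate. The 12 melanocyte markers summed to 4.78 to 6.14 CPM with anti-B7-H3 and 4.94 to 10.3 CPM with anti-PD1, against 13.2 to 47.4 CPM with IgG, where the reads were 1.91 times that rate. Neither sum overlapped between IgG and the antibody groups. Of the 2 melanocyte genes tested, 1 passed as lower against IgG under each antibody, beside 0.555% and 0.393% of all tested genes called. The 12 macrophage markers summed to 624 to 1008 CPM with anti-B7-H3 and 443 to 1090 CPM with anti-PD1, against 219 to 588 CPM with IgG, without overlap for anti-B7-H3. The 10 skeletal muscle markers were all positive, with a median log2 fold change of 4.0 for anti-B7-H3 and 3.98 for anti-PD1 against IgG. In both comparisons 0 of them passed the threshold, and 0 had an unadjusted edgeR p under 0.05. They summed to 0.945 to 1687 CPM with anti-B7-H3 and 67.4 to 1138 CPM with anti-PD1, against 26.2 to 57.8 CPM with IgG. The lowest sum, in anti-B7-H3 replicate 2, lay below every IgG library. The part of these cell types in the values of the pathway genes was not tested.

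The 5 tested genes whose log2 CPM followed Axin2 most closely over the 9 libraries were Trp53inp2 (Pearson r = 0.99), Pcdhgc5 (0.94), Kirrel3 (0.94), Klf9 (0.94) and Dmrta1 (0.93). The libraries share treatment groups, and the values are a description. Trp53inp2 had 1.64, 1.45 and 1.34 CPM with anti-B7-H3, 1.38, 0.776 and 1.49 CPM with anti-PD1, and 2.34, 2.90 and 2.76 CPM with IgG. Like Axin2, it was highest in the IgG libraries and lowest in anti-PD1 replicate 2.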

How the data were processed

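Total RNA depleted of ribosomal RNA was sequenced from 9 tumor samples in 3 groups. Per the file headers, the authors deposited 3 measures per transcript and library, namely estimated counts without normalization, TPM values and effective lengths. FastQC 0.11.8 and GRCm38 are named in the submitters' processing notes, and no quantifier is given in the sources used here. Of 58083 transcripts, 57409 were matched to GENCODE M21, and their listed length equals the coding sequence for 92.2% of those that have one, so the values hold few UTR reads. Estimated counts were summed per gene and rounded. Gene reads ranged from 8605473 to 27251181 a library.

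The test was edgeR 4.0.16 in R 4.3.3 (TMM, filterByExpr, 1 robust quasi-likelihood fit to every library, by group), and p-values were adjusted by Benjamini-Hochberg over 12965 genes at a threshold of 0.05. DESeq2 1.42.0, limma-voom (limma 3.58.1), other scalings, filters and covariates, a replicate block and leaving out each library were alternatives. Background subtraction without a filter was added after seeing the data. Intervals of fold changes are normal approximations from their SE. Scripts were tested on simulated data. For Tcf7, anti-B7-H3 against IgG, edgeR's Poisson bound raised the unadjusted p to 0.975 from 0.654.

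The 10 genes and the lists were chosen with earlier results of these data known. Named genes are these 10, the 2 most abundant tested genes of each pathway list, list genes past the threshold, and the 5 genes most correlated with Axin2. Pigment genes were singled out after their values were seen.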

Additional observations from a re-analysis of the deposited data

How the results depend on the processing

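The 8 tested genes were followed under 22 alternatives in each comparison with IgG and between antibodies. Scaling by library totals, which moves the median of all genes to 3.37, 3.15 and 0.20 for anti-B7-H3 against IgG, anti-PD1 against IgG and anti-B7-H3 against anti-PD1, turned every negative fold change against IgG positive. For anti-B7-H3 these became 2.15 for Axin2, 2.93 for Nkd1, 3.37 for Notum, 2.88 for Lef1, 3.29 for Tcf7, 3.29 for Apc and 3.07 for Znrf3. For anti-PD1 they became 1.65, 0.87, 1.34, 2.53, 2.56, 2.97 and 2.69 in the same order of genes, and Ctnnb1 between antibodies became 0.00. Amer1 became 1.06 and 1.18 for anti-B7-H3 and anti-PD1 against IgG. Removing satellite genes and scaling by totals moved the median of all genes to 0.25 and 0.21 for the same comparisons. Relative to the shifted median, Axin2, Nkd1, Lef1, Tcf7, Apc and Znrf3 stayed lower with both antibodies than with IgG, and Notum with anti-PD1. Under both scalings the gap to the median was smaller than the SE for Tcf7 and Apc with anti-B7-H3 and for Apc with anti-PD1. With library totals it was also smaller for Nkd1 and Znrf3 with anti-B7-H3, and about equal to the SE for Znrf3 with anti-PD1. Such scalings move nearly all genes alike, so these positions repeat those under TMM and are no separate evidence.

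Other settings also turned directions, the receptor covariate by the most. For anti-B7-H3 against IgG, Notum turned to 0.12 (satellite genes removed, library totals), 0.14 (no filter), 0.24 (without anti-B7-H3 replicate 1) and 0.29 (without IgG replicate 1). Tcf7 turned to 0.11 under those same 2 scaling and filter settings, 0.03 in limma-voom, 0.66 with the receptor covariate, 0.09 without IgG replicate 1 and 0.02 with no filter and background subtracted. Apc turned to 0.19, 0.16 and 0.47 under satellite removal with totals, no filter and the covariate, and to 0.08 without IgG replicate 3. Znrf3 turned to 0.17 with the covariate and 0.03 with no filter and background subtracted, and Ctnnb1 to -0.26 with the covariate. For anti-PD1 against IgG, Apc turned to 0.07, 0.03 and 0.25 under satellite removal with totals, no filter and the covariate; the covariate also put Tcf7 at -0.03 and Znrf3 at -0.11. Between antibodies, Axin2 and Apc turned to -0.02 and -0.04 without anti-PD1 replicate 2, Lef1 to -0.06 without anti-B7-H3 replicate 2, and Amer1 to 0.12 with the covariate. The cause was not tested. Over all single libraries left out, Notum, Tcf7 and Apc ran from -0.58 to 0.29, -0.42 to 0.09 and -0.20 to 0.08 for anti-B7-H3 against IgG. Axin2, Lef1 and Apc ran from -0.02 to 0.54, -0.06 to 0.28 and -0.04 to 0.23 between the antibodies.

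In the test over the 3 groups, members past the threshold numbered 3 in DESeq2 (15.8% of all genes), 8 with library totals (95.6%), 1 with satellite genes removed (4.06%), 2 with no filter (7.80%), 1 with no filter and background subtracted (1.17%), and 0 to 2 leaving out single libraries (0.0832 to 3.22%).

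Counts over all genes moved most. For anti-B7-H3 against IgG, 1 gene was higher and 71 lower. These were 112 and 2729 in DESeq2, 0 higher in limma-voom, 12456 higher with library totals, 5 and 477 with satellite genes removed, 19 and 467 with that and totals, and 131 and 966 with no filter. They were 0 and 10 with CPM over 1 in 3 libraries, 0 and 20 with only the groups compared, 0 and 0 with the receptor covariate, 0 and 11 with background subtracted, and 11 and 117 with no filter and background subtracted. Leaving out single libraries gave 0 to 13 higher and 8 to 432 lower.

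For anti-PD1 against IgG, 1 gene was higher and 50 lower. These were 408 and 1938 in DESeq2, 3 and 77 in limma-voom, 12287 higher with library totals, 32 and 279 with satellite genes removed, 135 and 356 with that and totals, and 270 and 461 with no filter. They were 0 and 16 with CPM over 1 in 3 libraries, 2 and 86 with only the groups compared, 0 and 5 with the receptor covariate, 0 and 9 with background subtracted, and 4 and 68 with no filter and background subtracted. Leaving out single libraries gave 0 to 20 higher and 9 to 412 lower.

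Between the antibodies, 0 genes were called in either direction, against 8 higher and 12 lower in DESeq2, 21 and 2 with library totals, 2 and 2 with no filter, and 1 and 2 with no filter and background subtracted; leaving out single libraries gave 0.

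Same-numbered libraries showed no steady likeness, with deviations that correlated from -0.324 to 0.18. The labels do not say whether replicate numbers pair the libraries, and these few correlations cannot settle it. With a replicate block, 1 gene was higher and 97 lower for anti-B7-H3 against IgG, 0 and 124 for anti-PD1 against IgG, and 0 and 0 between antibodies, and none of the 8 genes was called.

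The call of Amer1 in anti-B7-H3 against IgG was lost with CPM over 1 in 3 libraries (adjusted p = 0.063), only the groups compared (0.13), the covariate (1), background subtracted (0.071) and no filter with background subtracted (0.056), all edgeR values.

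Depth limits the IgG group: Nkd1, Notum, Tcf7 and Znrf3 had 13 to 72 reads in each IgG library.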
